A study of Homo sapiens with 21 samples.

Results

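The MYB family comprises 3 of the 17691 genes in the table: MYB, MYBL1 and MYBL2. They were taken by name, and MYB was chosen by its own measured values, because its level was lower under pomalidomide and in the libraries labelled Aiolos knockdown than in their controls. Values of MYB in those comparisons are therefore given as a description with no test. MYBL1 and MYBL2 came in as its relatives and were tested, although the members were chosen with earlier results of these data known. All 3 genes passed the filter of at least 1 TPM in at least 3 libraries, with MYB at or above 1 TPM in 18 of 21 libraries, MYBL1 in 19 and MYBL2 in 21.

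The cells were MM.1S, a human multiple myeloma line from peripheral blood, grown in RPMI medium with serum and antibiotics. There were 7 groups of 3 libraries. Wild type cells were left untreated or given 1 µM pomalidomide and collected after 24, 48 or 72 h. The other cells had no drug: they carried a lentiviral hairpin against ARID2 or against Aiolos (the protein of IKZF3) for 72 h, or were labelled control knockdown, for which neither a hairpin nor a time is given in the sources used here. Pomalidomide binds cereblon and brings Aiolos and Ikaros to a ubiquitin ligase, and ARID2 is a subunit of the PBAF chromatin remodeller. No untreated cells were matched to each drug time, so time in culture and time in drug cannot be told apart.

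The MYB proteins are transcription factors that bind DNA through Myb repeats. MYB (c-Myb) keeps blood progenitors and early lymphocytes immature and dividing, works through the coactivators CBP and p300, and normally declines as blood cells mature. MYBL1 (A-Myb) is best known from male meiosis and from germinal centre B cells. MYBL2 (B-Myb) is found in nearly all dividing cells: E2F factors switch its gene on at the start of S phase, and its protein joins the MuvB complex to activate the genes of mitosis together with FOXM1.

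Values are TPM as deposited, a share of transcripts scaled by length, so levels can be compared between genes but sequencing depth is unknown. Library totals over the table ran from 951444 to 968652 TPM, and libraries of a group correlated at 0.993 to 0.996 across genes. Differences are between group means of log2(TPM + 1) with their SE, which understates the change of genes near or below 1 TPM. Adjusted p-values are from limma over all 12559 genes kept, and a gene passed under 0.05. Where libraries are said not to overlap, the share of all genes that also did not was not counted. Of 8 plasma cell genes, SDC1 had group means of 600.9 to 925.6 TPM and JCHAIN of 3386 to 5731 TPM. Of the 8, 5 fell and 2 rose at 72 h of drug (median -0.37), beside 31.6% lower and 48.1% higher over all genes. In the libraries labelled Aiolos knockdown 6 fell and 2 rose (median -0.74), beside 30.7% lower and 37.2% higher over all genes. In the ARID2 knockdown 4 fell and 3 rose (median -0.10), beside 29.2% lower and 33.1% higher over all genes. Of 6 T and myeloid cell genes CD3D, LYZ and CSF1R stayed at or below 0.888 TPM in every library, and the 6 together summed to 6.02 to 7.78 TPM at 72 h against 1.54 to 2.85 TPM in untreated libraries. CD14 and CD2 rose at 72 h, and CD3E fell. The 6 summed to 3.13 to 3.56 TPM in the libraries labelled Aiolos knockdown and 0.559 to 1.18 TPM in the ARID2 knockdown. In control knockdown libraries they summed to 1.74 to 2.91 TPM. Of the 3 that passed the filter 1 rose in the first set and 2 fell in the second, beside the shares over all genes given above. Mitochondrial mRNA made up 13.7% to 18.5% of the listed total by group mean. The part of these in the results was not tested. The ARID2 transcript stood at 12.2 ± 0.191 TPM in the ARID2 knockdown and 25.6 ± 0.322 TPM in the control knockdown (SD, n = 3 each). IKZF3 was higher in the libraries labelled Aiolos knockdown, at 129.9 ± 10.4 TPM, than in the control knockdown, at 81.4 ± 2.19 TPM. The transcript goes against that label, and the protein was not measured here. The rise was not particular to those libraries: IKZF3 was at 119.5 ± 1.93 TPM in the ARID2 knockdown. It was also higher at each drug time than in untreated cells, and the control knockdown had the lowest mean of the 7 groups.

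The starts of MYB and MYBL2 are shown, which are the members with an entry in the promoter table; both were lower in every drug group, as was MYBL1. The sequences are the 250 bases before the RefSeq start of each gene on GRCh38.p14, plus strand (2 of 3 members matched). The window of MYB is chr6:135181058-135181307 and that of MYBL2 is chr20:43666864-43667113.
MYB: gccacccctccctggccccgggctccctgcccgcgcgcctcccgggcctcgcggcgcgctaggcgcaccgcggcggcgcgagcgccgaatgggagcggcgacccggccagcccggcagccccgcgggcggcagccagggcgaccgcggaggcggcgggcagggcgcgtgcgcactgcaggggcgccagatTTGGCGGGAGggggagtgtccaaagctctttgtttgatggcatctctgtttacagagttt
MYBL2: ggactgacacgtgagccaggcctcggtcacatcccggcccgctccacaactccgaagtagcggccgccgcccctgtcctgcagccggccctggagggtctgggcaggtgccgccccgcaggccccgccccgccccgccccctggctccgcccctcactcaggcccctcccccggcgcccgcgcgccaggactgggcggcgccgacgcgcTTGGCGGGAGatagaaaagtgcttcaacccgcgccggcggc
The capitals mark a run of 10 bases that both windows hold, beginning 60 bases before the start of MYB and 41 bases before that of MYBL2. By the GENCODE start of MYBL2, which lies inside its window, the run is within the gene. The marked run contains TTGGCGG, which resembles the E2F motif and was added to the search after the windows had been read. It was found by extending TTGGCGG on both sides, and other shared runs were not searched for. The windows also share gcccgcgcgcc, which is longer and is not marked.

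Both windows were rich in G and C, at 75.6% for MYB and 76.8% for MYBL2. The letters TTGGCGG occurred on either strand in 2.86% of 35116 RefSeq promoter windows of the same length, and the whole run of 10 in 0.145%. The other motifs searched on both strands were TTCCCGC and TTGGCGC for E2F (found in 5.52% and 2.56% of all windows) and TTTGAA and TTCGAA for the cell cycle homology region (13.3% and 1.19%). AACNG for MYB itself (70.6%) and TGGGAA for Ikaros (20.8%) completed the list. None of these was in the MYBL2 window, and the MYB window held a single AACNG match on the minus strand, 15 to 11 bases before the start. TTGGCGG and TTGGCGC share their leading bases but cannot match at the same place on a strand. A match is only a string of letters, and binding was not measured.

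MYB (chromosome 6, 135181315 to 135219173, plus strand, GRCh38) overlaps the antisense gene MYB-AS1, which is not listed. The kit was the TruSeq RNA v2 kit and strand is not mentioned in the sources used here, so reads of the antisense gene could be counted as MYB. Untreated libraries held 27.1, 27.5 and 26.2 TPM of MYB. At 24 h of pomalidomide they held 5.95, 6.34 and 5.61 TPM, at 48 h 1.43, 1.87 and 1.48 TPM, and at 72 h 0.791, 0.977 and 0.734 TPM. Every drug library was below every untreated library, and no 2 of the drug times overlapped. Bulk RNA does not tell fewer cells with a transcript from less of it in each cell, and cell numbers and cell cycle phases were not measured.

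Against the untreated mean, MYB stood at 22.2% ± 1.36 at 24 h, 5.92% ± 0.899 at 48 h and 3.10% ± 0.472 at 72 h (SD, n = 3 each). The differences on the log2(TPM + 1) scale were -2.0 ± 0.087, -3.43 ± 0.087 and -3.93 ± 0.087. Ranked from the largest fall among 12559 genes, MYB came 18th at 24 h, 5th at 48 h and 10th at 72 h, which is part of why it was chosen. For background, 31.0% of these genes passed as lower and 35.1% as higher at 24 h. The shares were 34.8% and 43.8% at 48 h and 31.6% and 48.1% at 72 h. In terms of level, 56.8% of kept genes were below MYB in untreated cells and 4.44% at 72 h.

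In the knockdown experiment the highest MYB levels were in the ARID2 knockdown. The libraries labelled Aiolos knockdown held 4.18, 3.26 and 4.46 TPM of MYB, the ARID2 knockdown libraries 15.2, 15.1 and 15.4 TPM, and the control knockdown libraries 12.97, 12.67 and 12.16 TPM. The libraries labelled Aiolos knockdown were all below the other 6, at 31.5% ± 4.96 of the control mean, a difference of -1.46 ± 0.087. In that comparison 30.7% of all genes passed as lower and 37.2% as higher. The ARID2 knockdown columns had no part in the choice of MYB. The control libraries did, through the comparison above, so the p-values here are not free of that choice. In the ARID2 knockdown MYB was higher by 0.26 ± 0.087 (adjusted p = 0.0149), with a mean of 121% ± 1.08 of the control mean. All 3 knockdown libraries were above all 3 controls. The call was lost without control knockdown replicate 3 (0.23, adjusted p = 0.0533). In the ARID2 comparison 33.1% of all genes passed as higher and 29.2% as lower, so a pass by itself was common.

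The levels of MYB in the control sets are given as a description, since both sets of columns had a part in its choice. Control knockdown libraries were at 46.8% ± 1.52 of the untreated mean, a difference of -1.04 ± 0.087 and the 22nd largest fall of 12559 genes. The libraries did not overlap. In that comparison 28.4% of genes passed as lower and 17.3% as higher. The ARID2 knockdown, at 15.3 ± 0.136 TPM, was above its own control and below untreated cells, at 26.9 ± 0.652 TPM. Ordered by mean, MYB ran from untreated through ARID2 knockdown, control knockdown, 24 h of drug, labelled Aiolos knockdown and 48 h to 72 h, and no neighbours in that order overlapped.

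**Figure D1:**
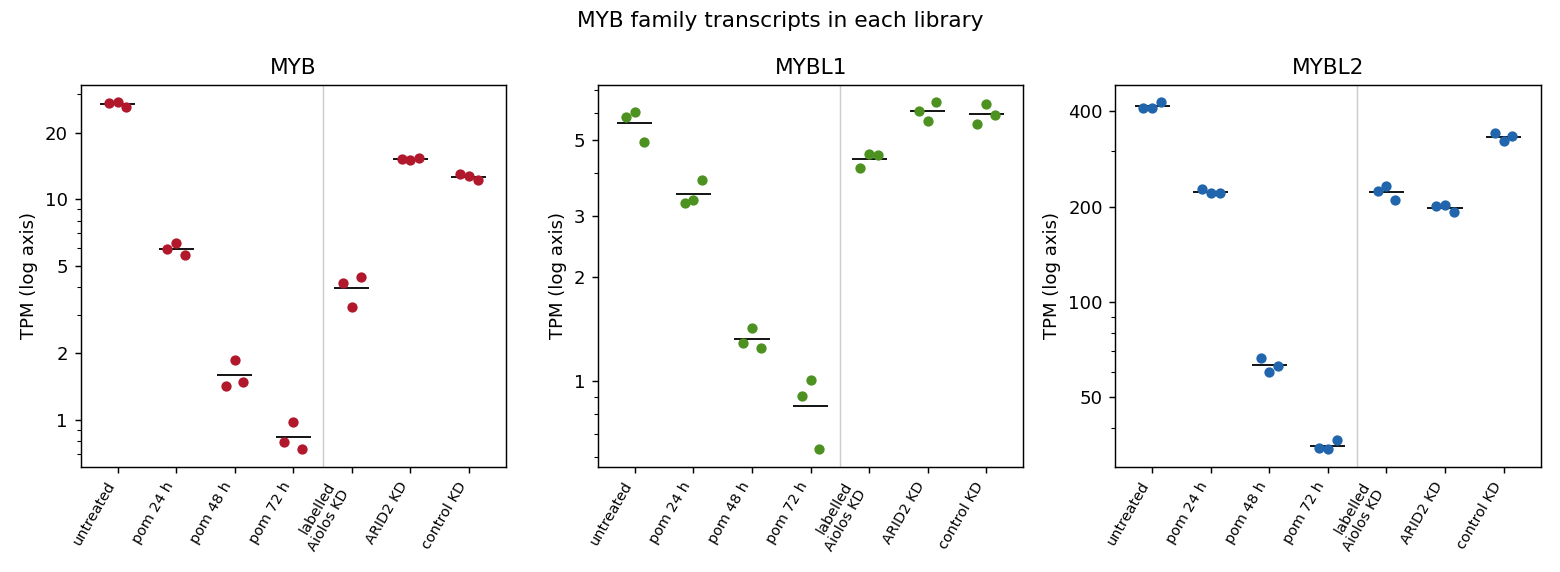
TPM of MYB, MYBL1 and MYBL2 (log axes, a separate scale for each gene) in each of 21 libraries; points are libraries, lines are means of 3, and pom is pomalidomide. MYB and MYBL2 step down from untreated through 24, 48 and 72 h with no overlap, and MYBL1 does the same at a level of 6.43 TPM or less.

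MYBL2 was by far the most abundant member and fell at each drug time. MYBL2 lies on chromosome 20 from 43667019 to 43716496 (plus strand, GRCh38), and that GENCODE start is inside the window printed above. Untreated libraries held 410.1, 410.1 and 427 TPM, 24 h libraries 227, 221 and 221 TPM, 48 h libraries 66.4, 60.2 and 62.6 TPM, and 72 h libraries 34.7, 34.2 and 36.7 TPM. The groups did not overlap at any step. Relative to untreated cells MYBL2 fell by 0.89 ± 0.041 at 24 h (adjusted p = 2.58e-13), 2.70 ± 0.041 at 48 h (adjusted p = 3.83e-21) and 3.53 ± 0.041 at 72 h (adjusted p = 4.13e-23).

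As a share of the untreated mean, MYBL2 was at 53.7% ± 0.823, 15.2% ± 0.753 and 8.47% ± 0.318 at the 3 times. On the log2 scale the step between 24 and 48 h was wider than those before and after it: MYBL2 dropped by 1.81 ± 0.041 (adjusted p = 9.42e-18), and a further 0.82 ± 0.041 followed by 72 h (adjusted p = 6.26e-12). Between 24 and 48 h 26.1% of all genes passed as lower and 32.1% as higher, and between 48 and 72 h 16.5% and 31.6%. In untreated cells MYBL2 ranked 281st of 12559 genes by level, and 62.2% of genes were still below it at 72 h.

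MYBL2 fell in both knockdown sets, one of which is named only by its label. The libraries labelled Aiolos knockdown held 225, 232 and 209.8 TPM, the ARID2 knockdown libraries 201, 202 and 192 TPM, and the control knockdown libraries 343, 322 and 334 TPM. Neither set overlapped the control libraries. The fall was 0.58 ± 0.041 in the libraries labelled Aiolos knockdown (adjusted p = 1.48e-10) and 0.74 ± 0.041 in the ARID2 knockdown (adjusted p = 5.45e-12), to 66.8% ± 3.45 and 59.6% ± 1.55 of the control mean. Set directly beside each other, the libraries labelled Aiolos knockdown were above the ARID2 knockdown by 0.16 ± 0.041 (adjusted p = 0.00177), where 35.7% of all genes passed as higher and 30.2% as lower. The control knockdown itself was below untreated cells by -0.32 ± 0.041 (adjusted p = 2.99e-06).

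In the order of its levels MYBL2 ran from untreated through control knockdown, 24 h of drug, labelled Aiolos knockdown, ARID2 knockdown and 48 h to 72 h. The 24 h libraries and those labelled Aiolos knockdown overlapped, at means of 223 and 222 TPM, and no other neighbours did.

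MYBL1 had the lowest mean of the 3 members in every group except 72 h of drug and the libraries labelled Aiolos knockdown, where MYB was lower. It lies on chromosome 8 from 66562175 to 66614247 (minus strand, GRCh38). Untreated libraries held 5.82, 6.02 and 4.95 TPM, 24 h libraries 3.27, 3.34 and 3.83 TPM, 48 h libraries 1.28, 1.42 and 1.25 TPM, and 72 h libraries 0.901, 1.00 and 0.632 TPM. The groups did not overlap, though the third 72 h library stood below the other two. MYBL1 fell by 0.56 ± 0.092 at 24 h (adjusted p = 2.56e-05), 1.51 ± 0.092 at 48 h (adjusted p = 6.83e-12) and 1.84 ± 0.092 at 72 h (adjusted p = 2.73e-13). These left 62.2% ± 5.41, 23.5% ± 1.62 and 15.1% ± 3.43 of the untreated mean. The step between 24 and 48 h was a fall of 0.95 ± 0.092 (adjusted p = 3.28e-08). The step between 48 and 72 h was -0.33 ± 0.092 (adjusted p = 0.00574), a call lost with a pseudocount of 5 TPM (-0.11, adjusted p = 0.0529) and when only those 2 groups were fitted (adjusted p = 0.0689).

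The libraries labelled Aiolos knockdown held 4.14, 4.55 and 4.51 TPM of MYBL1, the ARID2 knockdown libraries 6.05, 5.68 and 6.43 TPM, and the control knockdown libraries 5.55, 6.34 and 5.92 TPM. MYBL1 fell in the libraries labelled Aiolos knockdown by 0.36 ± 0.092 (adjusted p = 0.0018), with no overlap, and these were also below the ARID2 knockdown by -0.39 ± 0.092 (adjusted p = 0.00112). In the ARID2 knockdown MYBL1 overlapped its controls and did not pass (0.02 ± 0.092, adjusted p = 0.839), with a 95% interval of -0.17 to 0.22. Between control knockdown and untreated cells it did not pass either (0.08 ± 0.092, 95% interval -0.12 to 0.27, adjusted p = 0.537). The levels of ARID2 knockdown, control knockdown and untreated cells, the highest 3 of MYBL1 at 6.05, 5.94 and 5.60 TPM, overlapped from each to the next, and the remaining groups did not.

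**Figure D2:**
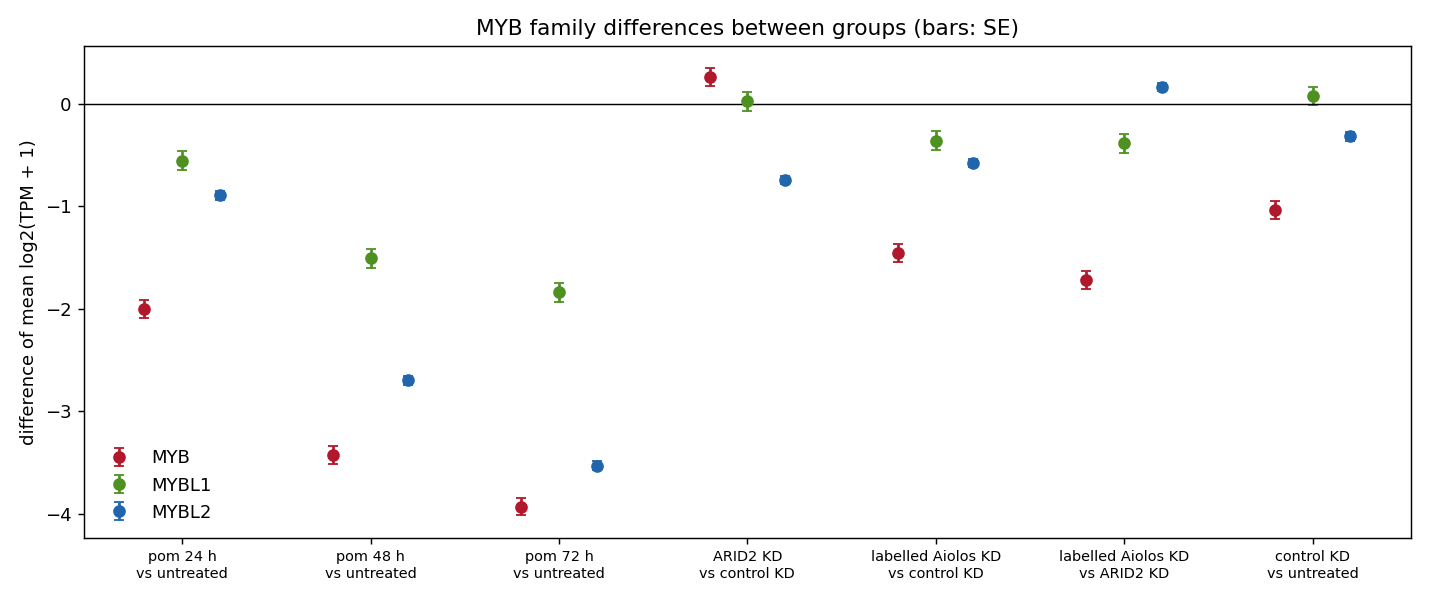
Differences of mean log2(TPM + 1) between groups for each member, with SE bars, for 7 comparisons; comparisons that share a control are not independent. MYB, MYBL1 and MYBL2 all lie below 0 at every drug time, whereas with the ARID2 hairpin MYB is at 0.26, MYBL1 at 0.02 and MYBL2 at -0.74.

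The makeup of the family pool shifted with these changes. The 3 transcripts together summed to 448 ± 8.61 TPM in untreated cells and to 233 ± 3.22, 66.0 ± 2.87 and 36.9 ± 1.04 TPM at 24, 48 and 72 h (SD, n = 3 each). They summed to 231 ± 10.9 TPM in the libraries labelled Aiolos knockdown, 220 ± 4.71 TPM in the ARID2 knockdown and 351 ± 10.0 TPM in the control knockdown. MYBL2 made up between 89.8% and 96.7% of the sum in every library. MYB made up 6.01% ± 0.255 of it in untreated cells and 2.57% ± 0.166 at 24 h, and 6.94% ± 0.208 in the ARID2 knockdown against 3.59% ± 0.130 in the control knockdown. In the libraries labelled Aiolos knockdown its share was 1.73% ± 0.344.

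The ratio of MYBL2 to MYBL1 does not involve the gene chosen by its values. ARID2 knockdown libraries had a mean ratio of 32.9 ± 2.80, against 56.3 ± 5.45 in control knockdown libraries, with no overlap, a difference of -0.77 on the log2 scale. In an exact two-sided permutation test over the 3 libraries of each group p was 0.1, the smallest that the 20 possible splits allow. For the libraries labelled Aiolos knockdown the ratio was 50.6 ± 3.88, and its log2 difference from the control knockdown of -0.15 gave an exact permutation p of 0.3. Over the drug times the ratio was 75.0 ± 9.90 in untreated cells, 64.5 ± 5.93 at 24 h, 48.1 ± 4.98 at 48 h and 43.6 ± 12.8 at 72 h. The ratio of MYBL2 to MYB, as a description, was 15.5 ± 0.741 in untreated cells and 37.5 ± 2.39 at 24 h, then 40.3 ± 7.36 and 42.9 ± 7.52. By 72 h MYBL1 and MYB stood at nearly equal levels, with a ratio of 1.01 ± 0.140 against 0.208 ± 0.0164 in untreated cells. Both were then near the filter, MYB at 0.734 to 0.977 TPM and MYBL1 at 0.632 to 1.00 TPM. The counting error of a ratio at such levels cannot be stated.

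**Figure D3:**
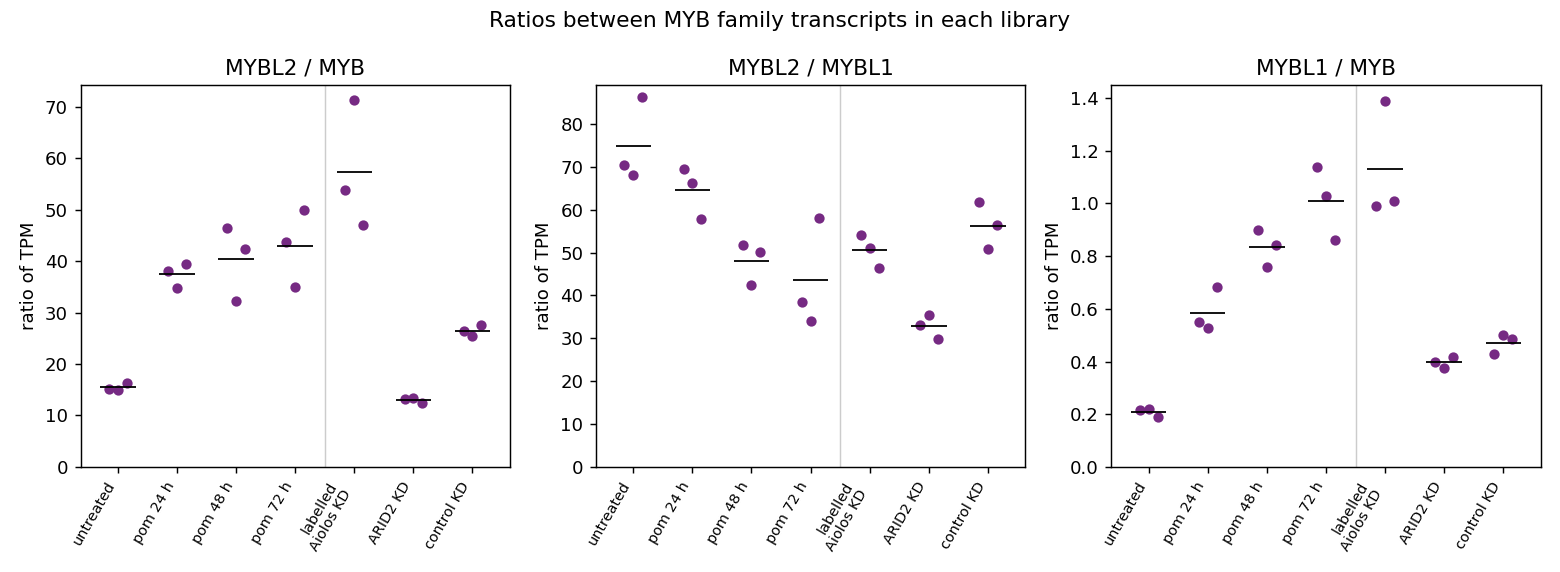
Ratios of TPM between members in each library (linear axes from 0; points are libraries, lines are means of 3; pom is pomalidomide). The ARID2 knockdown has the lowest mean ratio of MYBL2 to MYBL1 of the 7 groups, with libraries between 29.9 and 35.5 that overlap those at 72 h of drug, and the mean of MYBL1 to MYB is highest in the libraries labelled Aiolos knockdown, followed by 72 h of drug.

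MYBL2 was then read beside 2 groups of cell cycle genes: 20 genes that E2F drives at the entry to S phase and 25 G2/M genes that MYBL2 with MuvB and FOXM1 are known to activate. After 24 h of drug MYBL2 stood near the E2F genes: 19 of them fell, with a median of -0.98 over the 20 against 0.03 for all genes. The G2/M genes split at that time into 12 that rose, 2 that fell and 11 without a call, around a median of 0.11. Over all genes 31.0% passed as lower and 35.1% as higher. MYBL2, at -0.89, lay below all 25 G2/M genes, which ran from -0.25 to 0.47. CDC25B, a phosphatase that activates CDK1, rose by 0.47 ± 0.051, and KIF20A, a mitotic kinesin, by 0.41 ± 0.060. The 2 G2/M genes that fell were CDK1 itself (-0.25 ± 0.075) and BUB1 (-0.20 ± 0.053). FOXM1 fell by 0.17 ± 0.064.

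From 48 h both groups of genes fell in full, where 34.8% of all genes passed as lower at 48 h and 31.6% at 72 h. At 48 h the 20 E2F genes had a median of -2.63 and the 25 G2/M genes a median of -1.92 (0.09 for all genes), and at 72 h the medians were -2.97 and -3.22 (0.15 for all genes). MYBL2, at -2.70, was below all 25 G2/M genes at 48 h, the lowest of which was at -2.29, and at -3.53 it was within their range at 72 h. At 72 h PLK1, the kinase that drives mitotic entry, fell to 7.82 TPM, against 116 TPM in untreated cells. E2F1 fell to 14.9 TPM at 72 h, against 220 TPM in untreated cells.

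In the ARID2 knockdown all 25 G2/M genes fell (median -1.37, against 0.02 for all genes), as did 17 of 20 E2F genes, while 1 rose and 2 did not pass (median -0.63), beside 29.2% lower and 33.1% higher over all genes. MYBL2, at -0.74, fell less than every one of the 25 G2/M genes, whose smallest fall was -0.97. AURKA, a spindle pole kinase, had 18.3 TPM in the ARID2 knockdown and 101 TPM in the control knockdown (-2.40 ± 0.066). In the libraries labelled Aiolos knockdown all 20 E2F genes fell (median -1.19, against 0.05 for all genes), and the G2/M genes held 22 that fell and 2 that rose (median -0.53), beside 30.7% lower and 37.2% higher over all genes. The 2 that rose were lost with median-of-ratios scaling. There MYBL2, at -0.58, fell less than every one of the 20 E2F genes, whose smallest fall was -0.78. FOXM1 fell by 0.94 ± 0.064 in the ARID2 knockdown and did not pass in the libraries labelled Aiolos knockdown (0.04 ± 0.064). These lists were chosen with results on these cells known, and they share control libraries between comparisons.

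**Figure D4:**
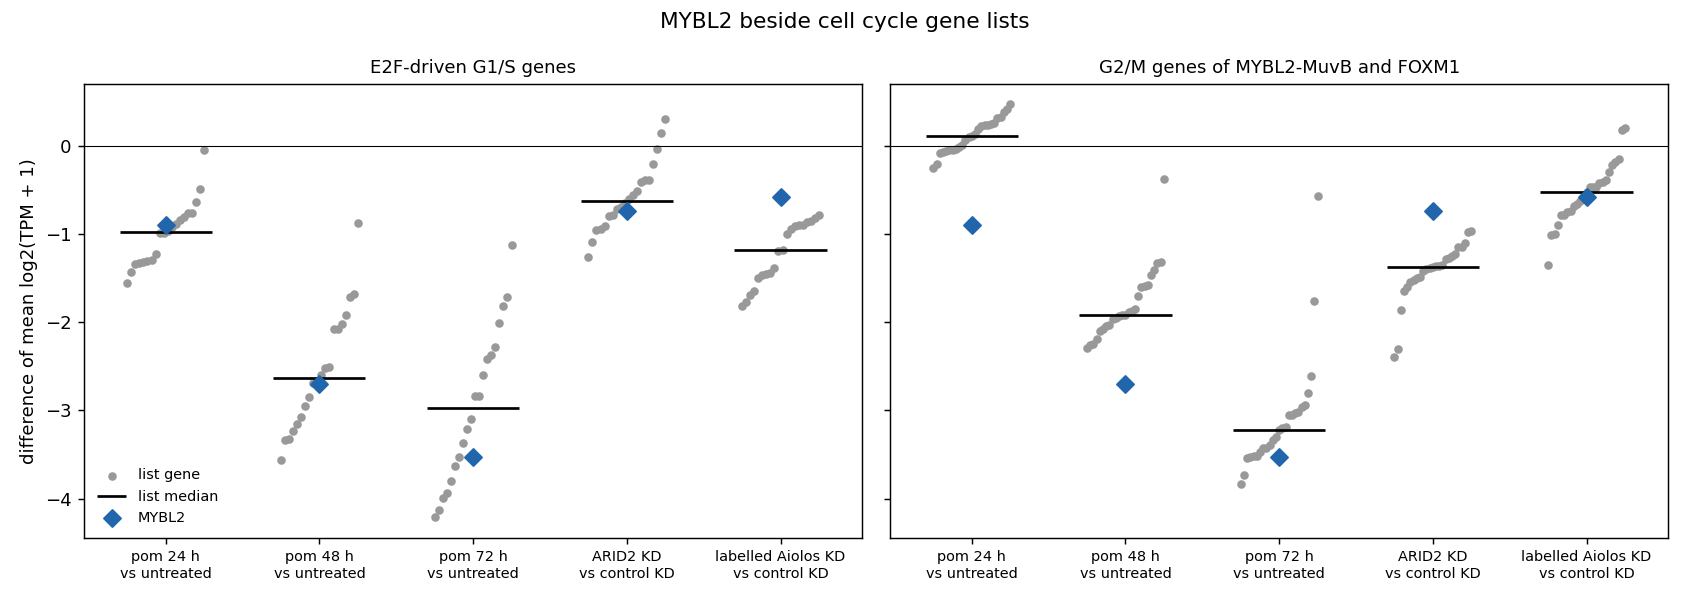
Differences of mean log2(TPM + 1) for 20 E2F-driven G1/S genes (left) and 25 G2/M genes (right) in 5 comparisons; grey points are genes, black lines are list medians and blue diamonds are MYBL2. At 24 h of drug MYBL2 (-0.89) is near the median of the E2F genes (-0.98) and below every G2/M gene; with the ARID2 hairpin it is above every G2/M gene.

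Transcripts of 13 genes of the MuvB and DREAM complexes and their regulators were read next. MYBL2 joins MuvB, and not all of the 13 act together with it. At 72 h 8 of these 13 fell and 4 rose (median -0.66), where 31.6% of all genes passed as lower and 48.1% as higher. The MuvB subunit LIN9 fell to 8.41 TPM at 72 h, against 26.9 TPM in untreated cells, and TFDP1, the partner of E2F factors, to 81.8 TPM, against 265 TPM in untreated cells. DYRK1A, the kinase that assembles the repressive DREAM form, rose by 1.08 ± 0.037. In the libraries labelled Aiolos knockdown 4 fell, 3 rose and 6 did not pass (30.7% lower and 37.2% higher over all genes), with DYRK1A up by 1.09 ± 0.037. In the ARID2 knockdown 7 fell, 2 rose and 4 did not pass (29.2% lower and 33.1% higher over all genes), and LIN52 was at 7.36 TPM, against 19.8 TPM in the control knockdown.

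Genes acting on MYB proteins were described in the same way. Cyclin A with CDK2 phosphorylates and activates MYBL2, and cyclin F restrains it: at 72 h CCNA2 fell by 3.42 ± 0.057, CCNF by 2.91 ± 0.054 and CDK2 by 1.65 ± 0.061. CCNA2 is also among the 25 G2/M genes. In all 3 of 7 such genes fell, 2 rose and 2 did not pass, beside 31.6% lower and 48.1% higher over all genes. PIM1, a kinase that acts on MYB, did not pass at 72 h (-0.09 ± 0.048) but rose in the libraries labelled Aiolos knockdown, with 320 TPM against 93.7 TPM in the control knockdown (1.76 ± 0.048, adjusted p = 6.36e-17), where 5 of the 7 fell and 1 did not pass (30.7% lower over all genes). In the ARID2 knockdown 3 fell, 2 rose and 2 did not pass, beside 29.2% lower and 33.1% higher over all genes.

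EP300 and CREBBP, which encode the coactivators p300 and CBP that MYB binds, were read with its other partners. At 72 h of drug EP300 rose by 0.75 ± 0.053 and CREBBP by 0.71 ± 0.053, among 9 partner genes of which 5 rose, 3 fell and 1 did not pass, close to the 48.1% higher and 31.6% lower of all genes. CREBBP was also higher in the libraries labelled Aiolos knockdown (0.74 ± 0.053) and in the ARID2 knockdown (0.73 ± 0.053). CEBPB, which cooperates with MYB at myeloid genes, was below its control in each, with -0.95 ± 0.082 at 72 h. It differed by -1.17 ± 0.082 in the libraries labelled Aiolos knockdown and -0.65 ± 0.082 in the ARID2 knockdown. The 2 controls were unlike for CEBPB, at 45.2 TPM in the control knockdown and 24.4 TPM in untreated cells. The ARID2 knockdown, at 28.5 TPM, was above untreated cells, and the libraries labelled Aiolos knockdown, at 19.6 TPM, were below them. Over the 9 genes 3 rose and 5 fell in the libraries labelled Aiolos knockdown (37.2% higher and 30.7% lower over all genes), and 3 rose and 3 fell in the ARID2 knockdown (33.1% higher and 29.2% lower).

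Genes described as MYB targets in blood cells did not move in 1 direction. Of 20 on the list only 10 passed the filter: KIT, CD34, CCNA1, LMO2, RAG2, PTGS2, MPO, ANPEP and LCK stayed at or below 0.701 TPM in every library, and ELANE is not listed. At 72 h 7 of the 10 fell and 3 rose, beside 31.6% lower and 48.1% higher over all genes. CCNE1 and CCNB1, which are also on the cell cycle lists, differed by -2.28 ± 0.094 and -3.05 ± 0.059, and the repressor GFI1 fell to 6.14 TPM, against 20.7 TPM in untreated cells. MYC was at 305 TPM at 72 h and 479 TPM in untreated cells (-0.65 ± 0.031). The survival factor BCL2 rose by 0.90 ± 0.058.

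In the libraries labelled Aiolos knockdown, where MYB was also low, 5 of the 10 fell, 2 rose and 3 did not pass, beside 30.7% lower and 37.2% higher over all genes. GFI1 fell to 4.03 TPM there, against 18.7 TPM in the control knockdown (-1.98 ± 0.10), whereas the chemokine receptor CXCR4 rose to 173 TPM, against 49.5 TPM in the control knockdown (1.79 ± 0.056). In the ARID2 knockdown, where MYB was slightly higher, 5 fell, 4 rose and 1 did not pass (29.2% lower and 33.1% higher over all genes), and MYC was at 201 TPM, against 371 TPM in the control knockdown (-0.88 ± 0.031). GFI1 fell in that group as well (-0.77 ± 0.10).

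Of 7 more distant genes that carry Myb-like domains 4 rose, 2 fell and 1 did not pass at 72 h, close to the 48.1% higher and 31.6% lower of all genes. DMTF1, a cyclin D binding factor, rose to 51.2 TPM, against 23.6 TPM in untreated cells. In the libraries labelled Aiolos knockdown 2 rose, 2 fell and 3 did not pass (37.2% higher and 30.7% lower over all genes), and in the ARID2 knockdown 1 rose, 2 fell and 4 did not pass (33.1% higher and 29.2% lower).

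Among the 10553 other genes whose highest group mean was at least 5 TPM, those most like each member over the 21 libraries were ranked by Pearson r of log2(TPM + 1), as a description, since libraries of a group share their treatment. Nearest to MYB were the replicative helicase subunit MCM4 (0.983), PASK (0.980), MRPL11 (0.977), MPC2 (0.977) and TP73 (0.975). MCM4 was at 27.4 TPM at 72 h of drug and 292 TPM in untreated cells. It did not share every step, with 167 TPM in the ARID2 knockdown and 193 TPM in the control knockdown. Nearest to MYBL1 were ZNF367 (0.983), SLC47A1 (0.982), the replication protein GINS4 (0.982), RPA3 (0.979) and FANCG (0.974). Nearest to MYBL2 were BRCA1 (0.994), RECQL4 (0.994), BLM (0.993), FANCI (0.993) and the tubulin TUBB (0.993). Over the same libraries MYB correlated with MYBL1 at 0.905 and with MYBL2 at 0.892, and MYBL1 with MYBL2 at 0.938.

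Genes beside the members on the chromosome moved in both directions. Over all genes 48.1% passed as higher and 31.6% as lower at 72 h, so such moves were common. The shares were 37.2% and 30.7% in the libraries labelled Aiolos knockdown, and 33.1% and 29.2% in the ARID2 knockdown. On chromosome 6 HBS1L, whose end is 78258 bases before MYB, was at 18.8 TPM at 72 h and 29.8 TPM in untreated cells (-0.64 ± 0.050, adjusted p = 3.61e-10). AHI1, on the other side, did not pass at 72 h (-0.08 ± 0.098) and was higher in both knockdown sets, with 7.72 TPM in the libraries labelled Aiolos knockdown and 9.66 TPM in the ARID2 knockdown, against 4.37 TPM in the control knockdown. Beside MYBL2, IFT52 did not pass at 72 h (0.11 ± 0.064) and TOX2 rose to 141 TPM, against 88.8 TPM in untreated cells (0.66 ± 0.044). Beside MYBL1, RRS1 fell at 72 h (-0.44 ± 0.060), whereas VCPIP1 rose at 72 h (0.33 ± 0.078) and in the libraries labelled Aiolos knockdown (0.46 ± 0.078), where MYBL1 fell. SGK3, also beside MYBL1, rose at 72 h (0.50 ± 0.10, adjusted p = 0.000231) and fell in the ARID2 knockdown (-0.88 ± 0.10, adjusted p = 4.13e-07). ALDH8A1, beside MYB, rose to 2.36 TPM at 72 h, against 0.721 TPM in untreated cells (0.97 ± 0.22, adjusted p = 0.000444). PDE7B, ADHFE1, SGK2 and GTSF1L, also nearby, did not pass the filter.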

How the data were processed

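The authors deposited 1 table in TPM with a column for each of 21 MM.1S libraries. The genome build is hg38 per the submitters' processing notes. No aligner, quantifier, annotation or filter is named in these sources (not given in the sources used here). TPM keeps no record of depth, so no interval for counting error is given, and a share can fall because other genes rose. The filter asked for 1 TPM or more in 3 or more libraries and kept 12559 of 17691 genes (99.9% or more of the listed TPM). The values log2(TPM + 1) were fitted in limma 3.58.1 under R 4.3.3 with 7 group means and a mean trend in the spread (14 residual and 5.28 prior degrees of freedom). Tests were two-sided with Benjamini-Hochberg adjustment over all kept genes in each of 9 comparisons. The fit was tested on simulated data. Nothing in the labels says that replicates came from separate cultures, so p-values measure only the spread between these libraries, which may be technical. The members and the 9 gene lists were chosen with earlier results of these data known. Gene positions come from GENCODE 29 (GRCh38, equal to hg38) and promoter sequences from RefSeq on GRCh38.p14. Named genes were the members, the hairpin targets, the 5 genes most like each member, the 2 nearest listed genes on each side and up to 4 genes per list with the smallest p at 72 h and with each hairpin. The 24 h and further examples, and those that recur across comparisons, were added after their values were seen. Other pseudocounts, filters, scalings, blocks, fits and left-out libraries were tried.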

Additional observations from a re-analysis of the deposited data

Results flagged for a closer look

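The drug effect differed between times for both members tested. MYBL2 was lower at 48 h than at 24 h by -1.81 (adjusted p = 9.42e-18) and lower at 72 h than at 48 h by -0.82 (adjusted p = 6.26e-12). MYBL1 was lower at 48 h than at 24 h by -0.95 (adjusted p = 3.28e-08) and lower at 72 h than at 48 h by -0.33 (adjusted p = 0.00574). That last step did not pass with a pseudocount of 5 TPM (adjusted p = 0.0529) or in a fit of those 2 groups only (adjusted p = 0.0689). In each of these steps the 3 libraries of the later time were all below the 3 of the earlier time. How many of all genes separated in this way was not counted. No untreated cells were matched to each time, so culture time cannot be told apart from drug time.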

How the results depend on the processing

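The direction of every member difference was kept under every alternative run, except for MYBL1 in the ARID2 knockdown, which passed in none: it was -0.003 with median-of-ratios scaling, -0.02 with quantile normalization and -0.02 to 0.07 with a library left out. Of 281 recomputed tests 278 kept their side of the threshold. The exceptions were MYB in the ARID2 knockdown, at 0.23 to 0.28 with a library left out, and MYBL1 between 72 and 48 h, at -0.11 with a pseudocount of 5 TPM and -0.33 in a fit of those 2 groups only. MYB is low at the later times, so its differences depended on the pseudocount by construction: with 0.1 TPM they were -2.16, -4.00, -4.86 and -1.66 at 24, 48 and 72 h and in the libraries labelled Aiolos knockdown, and with 5 TPM -1.54, -2.28, -2.45 and -0.98. Quantile normalization gave -3.62 at 48 h and -4.07 at 72 h, and the cause was not tested. With a library left out the value for the libraries labelled Aiolos knockdown was -1.53 to -1.36. Counts of genes passing moved by at most 1.15 times. At 72 h median-of-ratios scaling moved the median of all genes by -0.14 and quantile normalization by -0.10. Of the described MYB targets, 5 rather than 3 passed as higher at 24 h with quantile normalization, and 6 rather than 3 at 72 h without the filter, where more genes were tested. Of the G2/M genes 0 rather than 2 passed as higher in the libraries labelled Aiolos knockdown with median-of-ratios scaling.

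Same-numbered libraries did not deviate together: correlations of their deviations ran from -0.12 to 0.08. Each library of the first group was matched in each of 9 comparisons, so libraries recur. In 5 of these 27 matches the best correlation was with the same number. With the replicate number as a block, MYB in the ARID2 knockdown was 0.26 (adjusted p = 0.0204), and no member call changed. TPM gives no depth, so values of MYB and MYBL1 near 1 TPM carry a counting error that cannot be stated.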
